A study of Mus musculus with 41 samples.

Results

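The WNT pathway genes examined here are 42 of the 21911 protein-coding genes annotated in mm10, chosen by name as 19 WNT ligands, 12 receptors (the 10 Frizzled genes with *Lrp5* and *Lrp6*), 4 cytoplasmic components (*Ctnnb1*, *Apc*, *Axin1* and *Axin2*), 4 TCF/LEF factors and 3 secreted inhibitors (*Sfrp1*, *Wif1* and *Dkk3*). A peak was counted for a gene where it overlapped the gene body or the 50 kb to either side. All 42 genes were found in the annotation, and their stretches joined into 38 windows of 5.63 Mb in all, because the pairs *Wnt1* and *Wnt10b*, *Wnt3* and *Wnt9b*, *Wnt3a* and *Wnt9a*, and *Wnt6* and *Wnt10a* lie close enough to share theirs. Peaks in a shared stretch were counted for both genes of a pair but once in every total.

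CUT&RUN (CNR) maps a protein on chromatin by sequencing the fragments that an antibody-guided nuclease releases around it. The 41 samples of the series came from male CD1 mice, and 32 of them stood behind the 16 pooled peak lists used here, with 2 samples in each pool by their titles. For the MLL3/4 pool of WT-SOX9 cells with DOX, both samples are described as replicate 2, so whether it holds 2 separate replicates is not certain. In skin, epidermal stem cells (EpdSCs) were sorted from the backs of K14rtTA; TRE-myc-Sox9 mice as CD49f-high, Ly6A-high and CD34-negative cells without CD31, CD45, CD117 and CD140a. Doxycycline (DOX) lets the rtTA protein, which the keratin 14 promoter drives in skin epithelium, switch on the MYC-tagged *Sox9* transgene. SOX9 was mapped before DOX (D0) and after 1, 2, 6 or 12 weeks of it (W1, W2, W6 and W12). MLL3/4, the enhancer histone methyltransferases, were mapped in the D0, W1 and W2 skin. D0 skin was taken at postnatal day 21, W1 skin at day 28, W2 skin at day 35 and W6 skin at day 63, whereas W12 skin came from grafts. Weeks of DOX, age and grafting therefore cannot be told apart. In culture, K14rtTA keratinocytes that had received the transgene by lentivirus made MYC-tagged full-length SOX9 (WT-SOX9), SOX9 lacking its transactivation domain (dTA-SOX9, labelled noTA) or SOX9 lacking its DNA-binding HMG domain (dHMG-SOX9, labelled noHMG) at 1 µg/ml DOX. The control for all 3 was WT-SOX9 cells without DOX, and the MYC tag and MLL3/4 were mapped in every culture group.

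Each group has 1 list made after its replicates were merged, so no difference between groups could be tested. Intervals in square brackets are 95% Wilson intervals over peaks, which cover counting error only. Neighbouring peaks are not independent, and intervals over them are too narrow. The weakest SOX9 peak in skin rested on 24 to 59 fragments and the weakest MYC-tag peak on 8 to 11, while the depth behind the MLL3/4 lists is unknown. Promoters of all 5 basal epidermis markers (*Krt5*, *Krt14*, *Trp63*, *Itga6* and *Col17a1*) held a D0 MLL3/4 peak, against 0 of 4 for cells that the gate removes (*Ptprc*, *Pecam1*, *Pdgfra* and *Kit*). Those of 3 of 5 hair follicle stem cell markers (*Krt15*, *Sox9* and *Nfatc1*) and 2 of 3 melanocyte markers (*Mitf* and *Dct*) also held 1 or more. In cultured cells without DOX, promoters of 3 of 5 basal epidermis markers held an MLL3/4 peak, but not those of *Trp63* and *Itga6*. For markers of cells that the gate removes it was 1 of 4 (*Pecam1*), for hair follicle stem cells 2 of 5 and for melanocytes 0 of 3.

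WNT ligands are secreted lipid-modified proteins that bring a Frizzled receptor together with LRP5 or LRP6. In the absence of ligand, a complex built on AXIN and APC marks β-catenin, the product of *Ctnnb1*, for destruction. With ligand the complex is inactivated, and β-catenin enters the nucleus, where it works with TCF/LEF factors on target genes such as *Axin2*. In skin the pathway is best known for starting hair follicles in the embryo, for activating their stem cells in each hair cycle and for its activity in hair follicle tumours.

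The letters of 9 sites on which the results below turn are given first, so that they can be read beside the signals. The first 5 are the SOX9 regions with the highest W2 maximum in each role among those called at W1, W2, W6 and W12 but not at D0, namely an intron of *Tcf7l2* (nuclear), an intron of *Lrp5* (receptor), an intron of *Fam234a* within the *Axin1* window (cytoplasmic), an intergenic site in the *Wnt7a* window (ligand) and an intergenic site beyond *Sfrp1* (inhibitor). The next 3 are the strongest W2 SOX9 regions at *Fzd7*, *Wnt2b* and *Ctnnb1*, chosen after their values were seen. The last is the D0 MLL3/4 peak of highest total signal that was lost at W1 and W2 without any SOX9 peak on it, which lay beyond *Wnt5a*. Each is a stretch of the plus strand of mm10 (RefSeq GRCm38.p6), 5′ to 3′, with 50 bases to either side of the centre of the maximum. Capitals mark words found on either strand. The SOX word is CCATTGT or CCTTTGT, and with a leading G it is GCATTGT or GCTTTGT. The TCF/LEF word is CTTTGAA or CTTTGAT. The AP1 word is TGACTCA or TGAGTCA. Neighbouring words may share letters, as the pair of SOX words at the *Wnt7a* site does.
Tcf7l2 chr19:55788410-55788510: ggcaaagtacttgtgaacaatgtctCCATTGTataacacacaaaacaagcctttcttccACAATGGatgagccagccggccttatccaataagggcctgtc
Lrp5 chr19:3669334-3669434: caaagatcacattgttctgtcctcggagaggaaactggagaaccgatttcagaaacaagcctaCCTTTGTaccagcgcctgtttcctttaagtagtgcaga
Axin1 chr17:26239620-26239720: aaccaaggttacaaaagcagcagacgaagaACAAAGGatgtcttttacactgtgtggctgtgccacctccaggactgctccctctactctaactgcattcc
Wnt7a chr6:91452154-91452254: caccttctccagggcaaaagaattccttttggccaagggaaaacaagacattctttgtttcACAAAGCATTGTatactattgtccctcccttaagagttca
Sfrp1 chr8:23485870-23485970: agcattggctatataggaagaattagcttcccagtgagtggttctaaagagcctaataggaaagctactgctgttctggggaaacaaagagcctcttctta
Fzd7 chr1:59449512-59449612: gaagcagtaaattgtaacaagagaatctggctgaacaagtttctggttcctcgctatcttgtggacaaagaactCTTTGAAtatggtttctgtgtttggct
Wnt2b chr3:104993987-104994087: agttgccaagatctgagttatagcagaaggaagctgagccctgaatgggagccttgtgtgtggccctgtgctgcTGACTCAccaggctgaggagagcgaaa
Ctnnb1 chr9:120932552-120932652: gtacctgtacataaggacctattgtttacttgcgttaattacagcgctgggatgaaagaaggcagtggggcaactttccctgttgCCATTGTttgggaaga
Wnt5a chr14:28545219-28545319: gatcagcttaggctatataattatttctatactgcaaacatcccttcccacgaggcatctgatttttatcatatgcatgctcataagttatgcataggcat

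SOX words stood in the windows of *Tcf7l2*, which has them once on each strand, *Lrp5*, *Axin1*, *Wnt7a* and *Ctnnb1*. The *Fzd7* window held a TCF/LEF word, the *Wnt2b* window an AP1 word, and the *Sfrp1* and *Wnt5a* windows none of the 8 words. A match describes the letters and is no measure of binding, and its absence says only that these words are not in this window.

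Before DOX, SOX9 lay at few WNT genes, and from W1 on at most of them. From D0 to W12 the windows held 5, 82, 102, 99 and 44 SOX9 peaks in turn. List length moves with these counts, as the lists from W1 to W12 hold 15651, 18657, 20579 and 9745 peaks. Cut to the length of the W12 list they gave 49, 49, 44 and 44, which leaves no lower count at W12 than at W6. Members with at least 1 peak numbered 4 of 42 at D0, against 6.03% of all protein-coding genes counted the same way. W1 had 32 such members (all genes 52.4%) and W2 had 29 (57.5%). W6 had 34 (58.7%), and W12 had 24 (39.8%). At every time the share of members lay above that of all genes. The windows of the members had a median length of 128530 bp and those of all genes 117433 bp. SOX9 peaks lay in all 4 lists from W1 to W12 at 21 members (all genes 32.4%) and in none of the 5 lists at 6 (all genes 32.9%), which were *Wnt2*, *Wnt5a*, *Wnt9a*, *Wnt9b*, *Wnt11* and *Fzd8*. The D0 peaks lay at *Wnt3*, *Wnt6*, *Sfrp1* and *Dkk3*, and all 5 overlapped a D0 MLL3/4 peak. So few peaks cannot show whether this is particular to WNT genes.

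**Figure D1:**
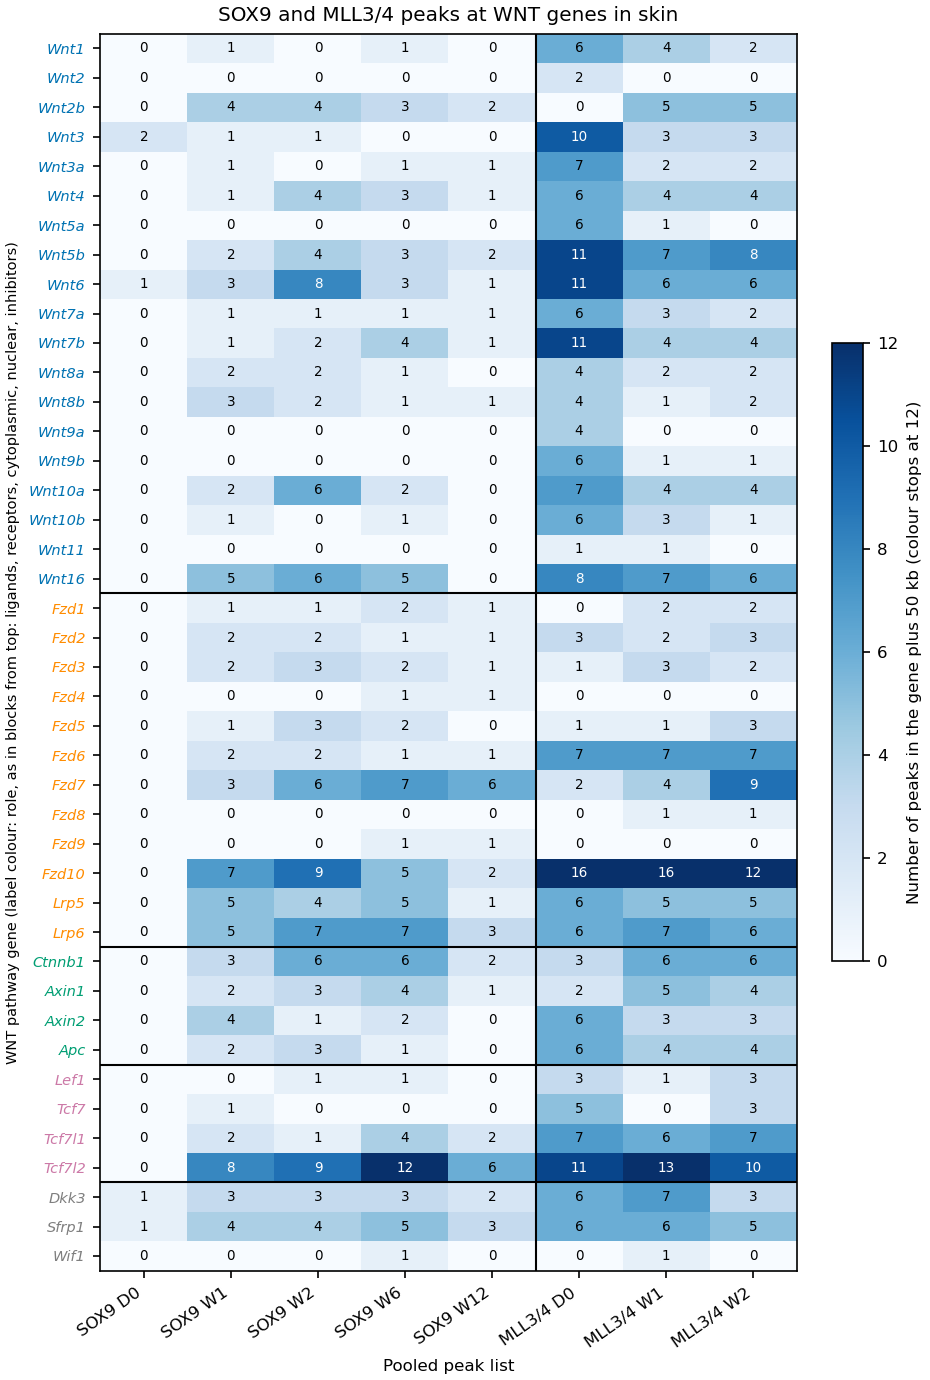
Number of SOX9 peaks (D0, W1, W2, W6 and W12) and MLL3/4 peaks (D0, W1 and W2) in the gene plus 50 kb for each of the 42 WNT genes, 1 pooled list per column, with genes in blocks by role and darker blue for more peaks. SOX9 columns are nearly empty at D0, and MLL3/4 counts of most ligands, in the upper block, are lower at W1 and W2 than at D0.

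Ligands differed widely among themselves, from 0 to 8 SOX9 peaks in a list. *Wnt6* had 1 SOX9 peak at D0 and then 3, 8, 3 and 1 from W1 to W12. Its neighbour *Wnt10a* had 0 at D0 and then 2, 6, 2 and 0. These genes share most of their stretch, and 5 of the regions in the shared stretch were nearest to *Wnt10a*. *Wnt16* had 0, 5, 6, 5 and 0 from D0 to W12, all upstream of the gene or at its start. *Wnt2b* had none at D0 and then 4, 4, 3 and 2. All of these were in a stretch of 3 regions from 32.3 to 39.1 kb upstream of the gene. *Wnt4* and *Wnt7b*, both expressed in skin epithelium, had 0, 1, 4, 3 and 1 and 0, 1, 2, 4 and 1. *Wnt3* was the exception in having most at D0, with 2, 1, 1, 0 and 0. *Wnt1*, *Wnt3a*, *Wnt7a* and *Wnt10b* had at most 1 peak in any list, and 5 of the 19 ligand windows had none.

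At W1 the highest signal of a ligand window was in the *Wnt7a* window at chr6:91451829-91452573, where the maximum from W1 to W12 was 10833, 7181, 5667 and 4596 RPKM. RPKM is coverage scaled for length and for the size of the library, and the authors kept SOX9 peaks with a maximum above 1800. The site was 40.8 kb upstream of *Wnt7a* and 21.3 kb from the start of *Chchd4*, its nearest gene. At W2 and W6 the highest maximum of a ligand window was at chr1:74725856-74727357 in an intron, nearest to *Cyp27a1* and 45.3 kb upstream of *Wnt6*. There it went from 2152 RPKM at D0 through 7433, 13904 and 10326 to 3815 at W12.

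Among the receptors, *Fzd7*, one of the Frizzled receptors, had 0, 3, 6, 7 and 6 SOX9 peaks from D0 to W12. Its strongest region, chr1:59448224-59450035, was 33.3 kb upstream of the gene at the start of another annotated transcript and reached 8989, 9244, 8060 and 5147 RPKM from W1 to W12. The region 0.5 kb upstream of the gene itself had 2420, 3361, 2225 and 2252 RPKM at the same times. *Fzd10* had 0, 7, 9, 5 and 2 peaks over the same lists. *Lrp6*, which encodes a co-receptor, had 0, 5, 7, 7 and 3. *Fzd1*, *Fzd2*, *Fzd3*, *Fzd5* and *Fzd6* had between 0 and 3 peaks in every list. *Fzd4* and *Fzd9* had 1 peak each at W6 and W12 alone, and *Fzd8* had none. None of the receptor genes had a peak at D0.

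The paralogue *Lrp5* held the highest SOX9 signal of any receptor. In its intron, at chr19:3668343-3670496 and 17.1 kb from the start of the gene, the maximum was 15328, 17877, 15322 and 9513 RPKM from W1 to W12. By maximum the peak ranked 36 among 15651 in the W1 list, 61 among 18657 (W2), 46 among 20579 (W6) and 127 among 9745 (W12). No MLL3/4 peak lay there at D0, and 1 was called at W1 and at W2.

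All 4 genes of cytoplasmic components had SOX9 peaks at W1, W2 and W6. *Ctnnb1*, the gene of β-catenin, had 0, 3, 6, 6 and 2 peaks from D0 to W12. Its strongest region, chr9:120932213-120933112, lay 3.4 kb inside the gene at the start of an annotated transcript and reached 5589, 7258, 7976 and 3860 RPKM from W1 to W12. *Axin1*, the scaffold of the destruction complex, had 0, 2, 3, 4 and 1 peaks. The highest signal of its window was in an intron of *Fam234a* at chr17:26239508-26240292, at 10257, 8709, 7808 and 3769 RPKM from W1 to W12. *Axin2*, a target gene and feedback inhibitor of the pathway, had 4, 1, 2 and 0 peaks from W1 to W12. *Apc* had 2, 3, 1 and 0, all beside the neighbouring genes *Srp19* and *Reep5*.

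*Tcf7l2* held the highest SOX9 signal of all members from W2 on, after *Lrp5* at W1. It encodes a TCF factor that can activate or repress WNT targets. Its 13 regions from W1 to W12 gave 8, 9, 12 and 6 peaks, with none at D0. The intron site at chr19:55788288-55789009, 46.8 kb from the start, reached 14867, 24371, 16203 and 12409 RPKM from W1 to W12. Among all peaks of a list it ranked 38 at W1, 18 at W2 and 36 at both later times. A second intron site at chr19:55779400-55780423 had 6800, 10008, 6758 and 3906 RPKM. The other factors had few peaks. *Tcf7l1*, known as a repressor in hair follicle stem cells, had 0, 2, 1, 4 and 2 from D0 to W12. *Lef1* had 0, 0, 1, 1 and 0, and *Tcf7* had 0, 1, 0, 0 and 0. The peaks in the *Lef1* and *Tcf7* windows were nearest to other genes, *Hadh* and *Skp1a*.

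Of the inhibitors, which bind WNT proteins or belong to the Dickkopf family, *Sfrp1* had 1, 4, 4, 5 and 3 SOX9 peaks from D0 to W12 and *Dkk3* 1, 3, 3, 3 and 2. The strongest *Sfrp1* region, chr8:23466061-23467451 and 55.3 kb downstream of its start, had a SOX9 maximum of 2613 RPKM at D0 and then of 6800, 9015, 8731 and 4550. The strongest *Dkk3* region, chr7:112143828-112144867, lay in an intron with 5935, 7411, 6255 and 4596 RPKM from W1 to W12 and no D0 peak. *Wif1* had a single peak, at W6, of 1973 RPKM.

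**Figure D2:**
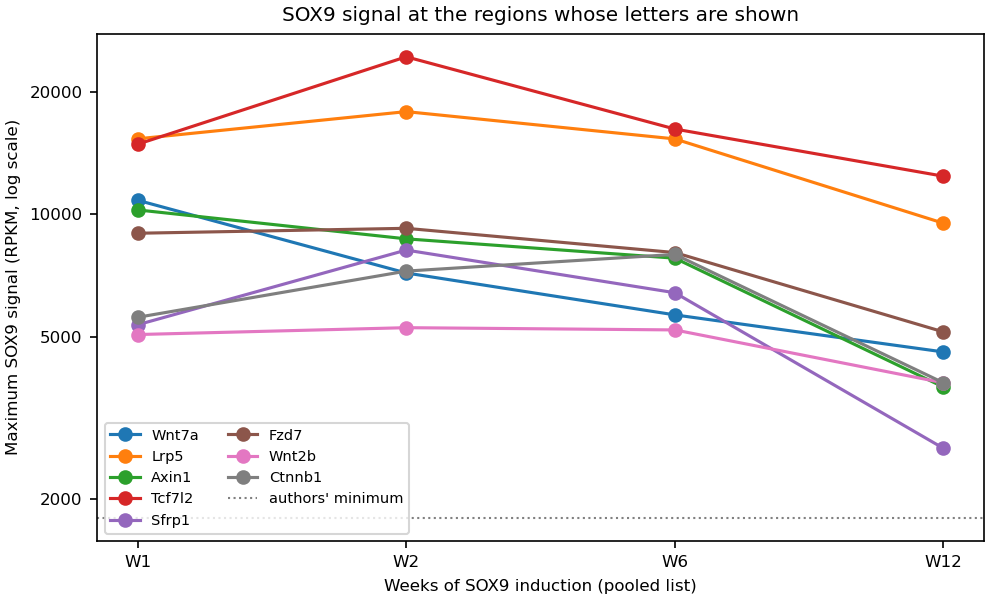
Maximum SOX9 signal in RPKM (log axis) at W1, W2, W6 and W12 (evenly spaced, 1 pooled list each) at the 8 SOX9 regions whose letters are given, with a dotted line at the authors' minimum of 1800. The intron sites of *Tcf7l2* and *Lrp5* are the highest 2 at every time, and each of the 8 is lower at W12 than at W6.

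Merged over W1 to W12, the SOX9 peaks of the windows formed 135 regions. Of these, 29 were called at all 4 times, which is 21.5%, against 17.9% of the 28549 regions of the whole genome, and 42 at a single time (31.1% against 36.0%). A D0 MLL3/4 peak lay on 71 of the 135 (52.6%, genome 53.7%). It lay on 29 of the 42 regions of ligands, 21 of the 43 of receptors, 8 of the 20 of cytoplasmic components, 7 of the 20 of TCF/LEF factors and 6 of the 10 of inhibitors. MLL3/4 was new at W1 or W2 on 31 regions (23.0%, genome 20.7%) and absent on 33 (24.4%, genome 25.6%). A member was the nearest gene of 99 regions. On these measures the WNT regions as a whole lay near the shares of the genome.

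At the ligand genes MLL3/4 peaks were fewer after SOX9 induction, and at the receptor genes they were about as many or more. The ligand windows held 97 MLL3/4 peaks before DOX, 50 after 1 week and 47 after 2, whereas the receptor windows held 42, 48 and 50. Single receptors weigh on these totals, as *Fzd7* had 2, 4 and 9 of the peaks and *Fzd10* 16, 16 and 12. Of the 19 ligand genes, 17 had fewer MLL3/4 peaks at both W1 and W2 than at D0, against 40.6% of all protein-coding genes. The receptor *Lrp5*, the cytoplasmic *Axin2* and *Apc*, and *Tcf7* were the other members with fewer at both. The 17 ligands include both genes of every pair that shares a stretch, so they are not 17 separate cases. The stretches of the 19 ligands joined into 15 windows. In the opposite direction, 7 of 42 members had more at both times, against 7.88% of all genes. These members were *Wnt2b*, *Fzd1*, *Fzd3*, *Fzd7*, *Fzd8*, *Ctnnb1* and *Axin1*.

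The number of peaks at D0 bears on that count, as ligand genes had a median of 6 D0 peaks and receptors of 1.5. Of all genes with 4 to 11 D0 peaks, 68.6% had fewer at both later times, and all 16 ligands in that range did. The pairs with a shared stretch are among these 16. The lists also differed in length, as the D0 list has 37072 MLL3/4 peaks, the W1 list 31539 and the W2 list 29281. Cut to equal length, they gave fewer peaks at both times for 15 of 19 ligands (all genes 27.4%) and 0 of 12 receptors, and more at both for 7 receptors (all genes 12.36%). With 10 kb to each side the ligands with fewer were 9 of 19 (all genes 27.1%). Among genes with 4 to 11 D0 peaks under the same settings, fewer at both times were found at 13 of 15 ligands in lists of equal length (all such genes 52.7%) and at 5 of 6 with 10 kb (68.1%).

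Peak by peak, 63 of 97 D0 MLL3/4 peaks of ligands were lost at W1, that is overlapped by no W1 peak. This is 64.9% [55 to 73.7] against 48.5% of the whole D0 list. At W2 the count was again 63 of 97 (whole list 48.7%). Of the 42 D0 peaks of receptors, 13 were lost at W1, which is 31.0% [19.1 to 46.0], and 13 at W2. The intervals of ligands and receptors did not overlap here or in lists of equal length. They overlapped with 10 kb to each side, where the shares lost at W1 were 58.3% [42.2 to 72.9] and 38.5% [17.7 to 64.5]. They also did among the top 50% of peaks by total signal, with 64.3% [49.2 to 77.0] and 41.2% [21.6 to 64.0]. *Fzd10* held 16 of the 42 receptor peaks, and 4 of these were lost at W1. The receptor share lost at W2 was 47.1% among those top 50% and 16.7% in lists of equal length. For the ligand peaks nearest to a ligand gene the share lost at W1 was 64.5% [52.1 to 75.3], and for those nearest to another gene 65.7% [49.2 to 79.2]. Over all members, 103 of 194 were lost at W1 and 104 at W2, or 53.1% [46.1 to 60.0] and 53.6% [46.6 to 60.5]. Gained peaks, with no D0 peak on them, made up 60 of 150 at W1 (40.0%, whole list 39.7%) and 56 of 145 at W2 (38.6%, whole list 35.7%).

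**Figure D3:**
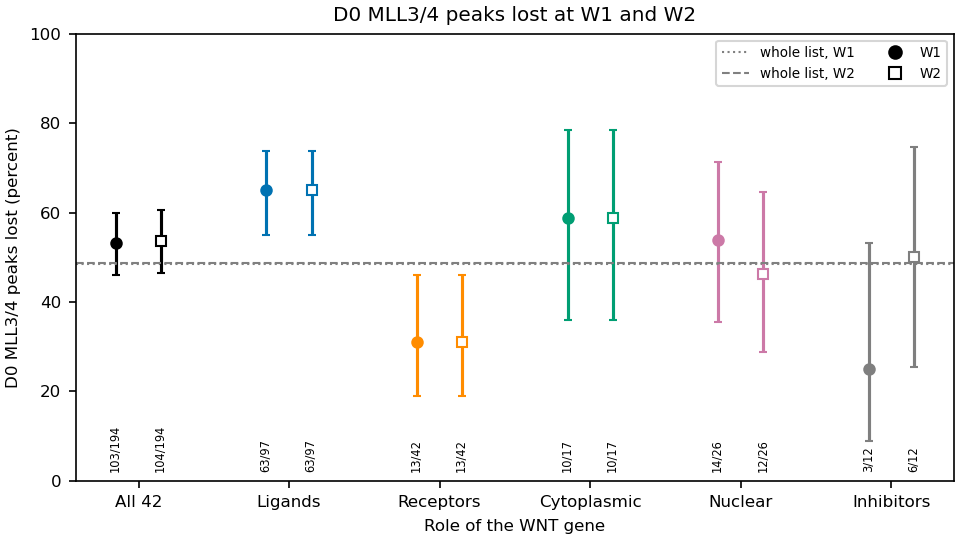
Percent of D0 MLL3/4 peaks lost at W1 (filled circles) and W2 (open squares) for all 42 WNT genes and by role, with 95% Wilson intervals over peaks, the counts along the bottom and the share of the whole list as grey lines. Ligands stand above the lines and receptors below them, and intervals of the smaller roles span them.

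*Wnt3*, an activating ligand of the epidermis, had 10 MLL3/4 peaks before DOX and 3 at either later time. Lost at both times were 7, among them the peak 0.1 kb from its start and 5 from 53.1 to 91.0 kb downstream of that start. These 5 lay beyond the end of *Wnt3*, at an annotated transcript start, in introns or in a coding exon outside it. The farthest was nearest to *Nsf*. SOX9 lay at 2 of the D0 sites in the *Wnt3* window, both also beyond the gene, at 1875 RPKM on each at D0. At W1 and W2 it lay on 1 of them, where MLL3/4 was still called. *Wnt5a*, which signals mostly without β-catenin, had 6, 1 and 0 MLL3/4 peaks in turn and no SOX9 peak in any list. Of its D0 peaks, 5 lay within 35 to 41.0 kb downstream of the start and were lost at both times. The last sequence above is the middle of the tallest of them, chr14:28545040-28545507. *Wnt5b* had 11, 7 and 8 and also 7 peaks lost at both, most of them nearest to *Adipor2*. *Wnt6* had 11, 6 and 6 and its neighbour *Wnt10a* 7, 4 and 4. *Wnt7b* had 11, 4 and 4, *Wnt9b* 6, 1 and 1, and *Wnt9a* 4, 0 and 0. None of the D0 peaks of *Wnt9a* and *Wnt9b* was nearest to these genes, as the 4 of *Wnt9a* lay in introns of *Wnt3a* and the 6 of *Wnt9b* were nearest to *Gosr2* or *Wnt3*.

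*Wnt16* had 8, 7 and 6 MLL3/4 peaks from D0 to W2. *Wnt2b* was the ligand with more. It had 0 at D0 and 5 each at W1 and W2, all from 31.1 to 39.0 kb upstream, and SOX9 lay on 4 of these 5 regions at both W1 and W2. Cultured cells without DOX had an MLL3/4 peak on 3 of those 5 regions.

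*Fzd7* had 2, 4 and 9 MLL3/4 peaks, beside the SOX9 peaks given above. *Ctnnb1* had 3, 6 and 6, and *Axin1* 2, 5 and 4. At the *Ctnnb1* region chr9:120932255-120932886, at the *Tcf7l2* intron site and at the *Lrp5* intron site, MLL3/4 was called at W1 and W2 and not at D0, on SOX9 called from W1 to W12. *Fzd10* stayed at 16 and 16 at D0 and W1 and had 12 at W2. *Lrp6* had 6, 7 and 6, with 3 gained by W1 and still present at W2. *Fzd2* had 3, 2 and 3, with 2 peaks lost at both times. *Axin2* had 6, 3 and 3, with 3 lost at both times between 30.6 and 33.8 kb upstream on no SOX9 peak. *Apc* had 6, 4 and 4. *Tcf7l2* had 11, 13 and 10, *Tcf7l1* 7, 6 and 7 and *Lef1* 3, 1 and 3. *Wif1* had 0, 1 and 0. *Sfrp1* had 6, 6 and 5 and *Dkk3* 6, 7 and 3.

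**Figure D4:**
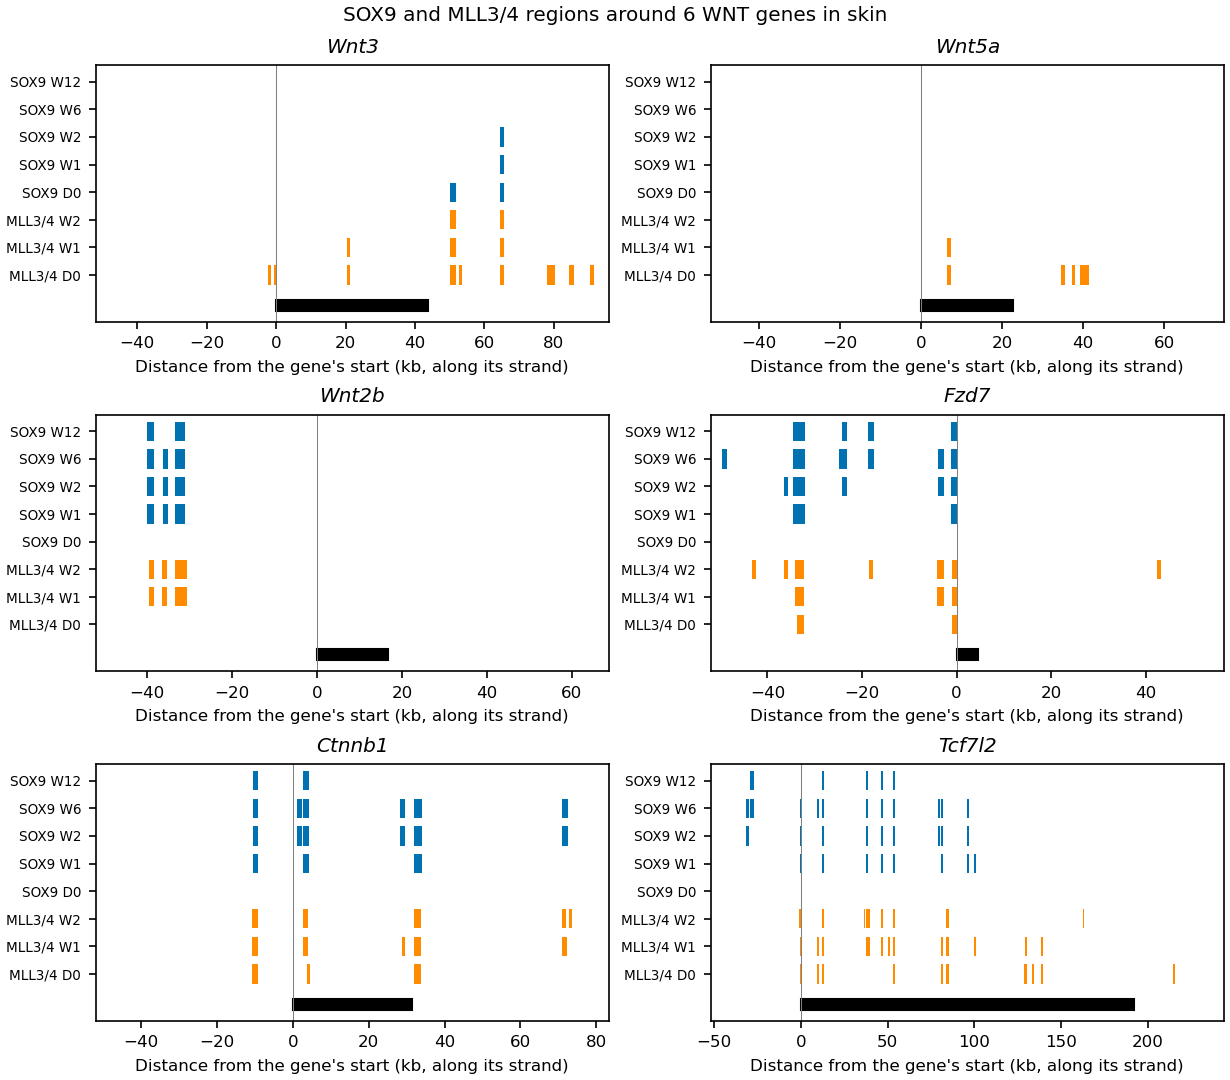
SOX9 (blue) and MLL3/4 (orange) regions called in skin around 6 WNT genes, by distance in kb from the start of the gene along its strand, 1 row per pooled list, with the gene body in black and regions widened slightly to be seen. *Wnt3* and *Wnt5a* lack most of their D0 MLL3/4 regions at W1 and W2, and *Wnt2b* and *Fzd7* have MLL3/4 regions there that D0 lacks.

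SOX9 lay on fewer of the lost MLL3/4 peaks than of the gained or kept ones, over all members, as in the whole lists. At W1 SOX9 was on 10 of 103 lost peaks, which is 9.71% [5.36 to 17.0] against 7.58% of the whole list. It was on 25 of 60 gained peaks, or 41.7% [30.1 to 54.3] (whole list 30.5%), and on 49 of 90 kept peaks, or 54.4% [44.2 to 64.3] (whole list 55.0%). At W2 the counts were 6 of 104 lost (5.77% [2.67 to 12]), 27 of 56 gained (48.2% [35.7 to 61.0]) and 54 of 89 kept (60.7% [50.3 to 70.2]), with 9.06%, 38.5% and 58.4% in the whole list. In each of these 6 cases the share of the whole list lay inside the interval of the WNT windows. For ligands SOX9 was on 3 of 63 lost peaks at W1 and 4 of 63 at W2. For receptors it was on 5 of 13 lost peaks at W1, which is 38.5% [17.7 to 64.5] and above the share of the whole list, and on 0 of 13 at W2. Receptors thus held 5 of the 10 lost W1 peaks with SOX9. On gained peaks of receptors SOX9 was found at 10 of 20 at W1, or 50.0% [29.9 to 70.1], and at 15 of 23 at W2, or 65.2% [44.9 to 81.2]. The whole-list share given above lay inside the first interval, just above its lower end, and below the second. On gained peaks of ligands it was found at 7 of 16 and 6 of 13.

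In culture, MYC-tag peaks at WNT genes were most with WT-SOX9 and dTA-SOX9, whose lists were also the longest. WT-SOX9 cells had 24 MYC-tag peaks in the windows and dTA-SOX9 cells 31, against 6 in the cells that got no DOX and 7 in the dHMG-SOX9 cells. The whole lists held 6671, 11341, 2242 and 3980 peaks in the same order, of which 0.360%, 0.273%, 0.268% and 0.176% lay in the windows. With the lists of WT-SOX9 and dTA-SOX9 cut to the length of the dHMG-SOX9 list, the order of these turned, with 18 peaks for WT-SOX9 and 12 for dTA-SOX9. Members with a peak were 13 for WT-SOX9 (all genes 32.0%) and 21 for dTA-SOX9 (41.0%). The control had 6 such members (20.1%) and dHMG-SOX9 had 5 (29.3%). Of the 4 lists, dTA-SOX9 was the one in which the share of members lay above that of all genes. None of the 24, 31 and 7 peaks overlapped one of the no-DOX list, which held 6 peaks in the windows. With so few no-DOX peaks, this does not set WNT genes apart. Receptors held 11 of the 24 WT-SOX9 peaks, and these were at *Lrp6* (5), *Fzd7* (4) and *Lrp5* (2). The highest WT-SOX9 maximum, 8536 RPKM, was at chr19:55788316-55788589, the same *Tcf7l2* intron site as in skin, where dTA-SOX9 and dHMG-SOX9 had no peak. The *Lrp5* intron site had 7880 RPKM with WT-SOX9 and 3897 with dTA-SOX9. The *Sfrp1* region 55.3 kb downstream had 11076 RPKM with dTA-SOX9, 1982 with dHMG-SOX9 and no WT-SOX9 peak.

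**Figure D5:**
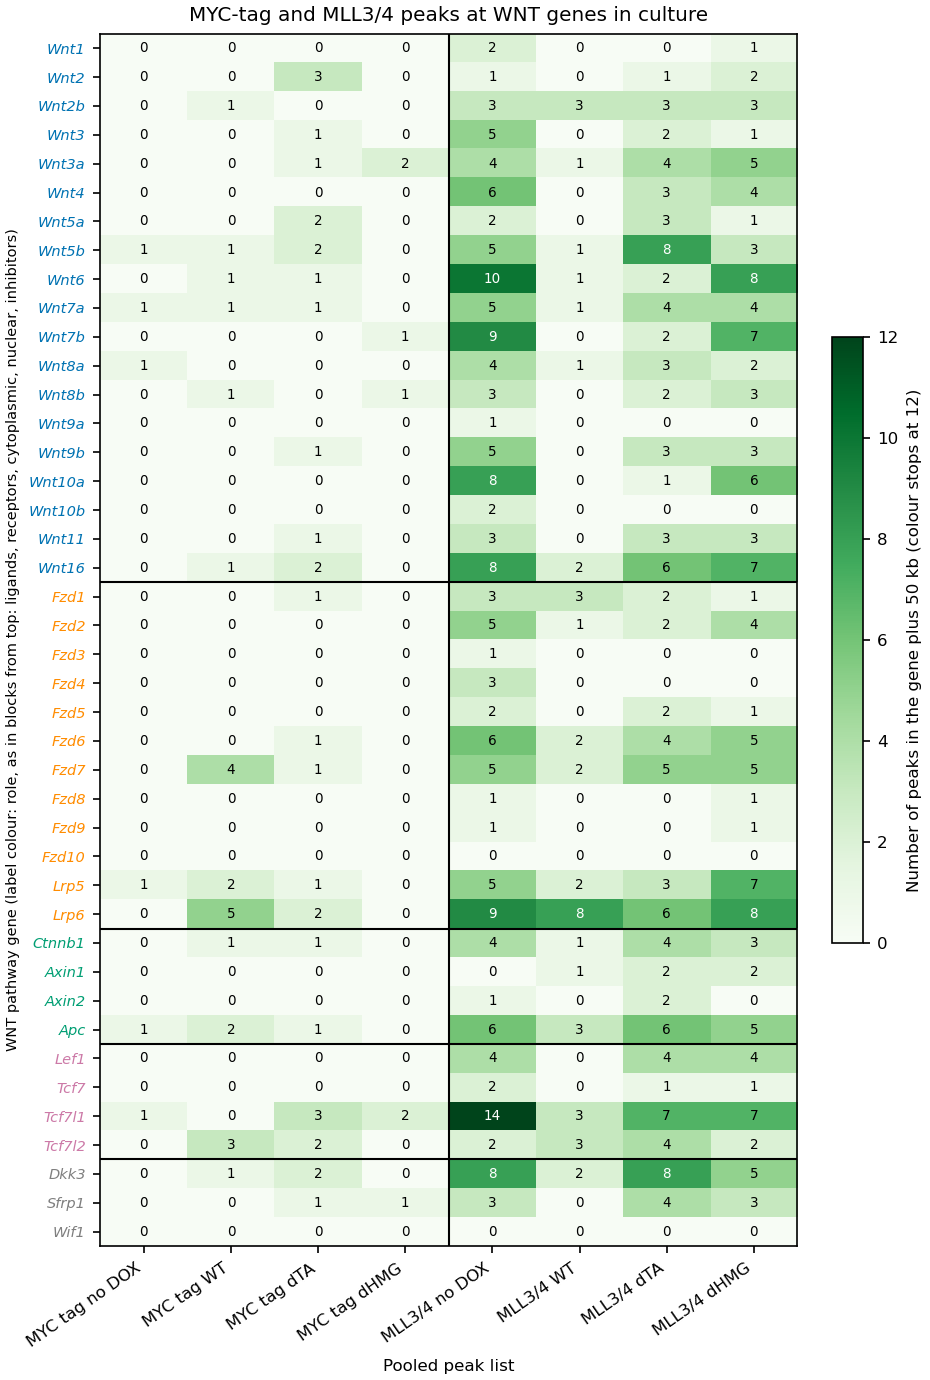
Number of MYC-tag and MLL3/4 peaks in the gene plus 50 kb for each of the 42 WNT genes in cultured keratinocytes without DOX and with WT-SOX9, dTA-SOX9 and dHMG-SOX9, 1 pooled list per column, in the same order as in skin. MYC-tag columns are sparse without DOX and with dHMG-SOX9, and the MLL3/4 column of WT-SOX9 has fewer peaks than the other 3.

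Skin SOX9 from W1 to W12 overlapped 15 of the 24 WT-SOX9 peaks, which is 62.5% [42.7 to 78.8] against 54.6% of the whole list. In the other direction WT-SOX9 peaks overlapped 13 of the 135 skin regions, or 9.63% [5.71 to 15.8] (whole genome 12.2%). Sites shared by both included those of *Tcf7l2*, *Lrp5*, *Fzd7*, *Ctnnb1*, *Wnt2b*, *Wnt7a* and *Dkk3*. One strong WT-SOX9 peak in the *Lrp6* window, chr6:134537804-134537983 with 7387 RPKM, lay on no skin SOX9 region.

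The windows held 159 MLL3/4 peaks in control cells, 41 in WT-SOX9 cells, and 115 and 122 where SOX9 lacked its transactivation or its HMG domain. Of the 39 members with at least 1 control peak, 36 had fewer with WT-SOX9, against 90.8% of all genes with a control peak. The other 3 were *Wnt2b*, *Fzd1* and *Tcf7l2*, while *Fzd10*, *Axin1* and *Wif1* had no control peak to lose. Of the 159, WT-SOX9 kept 29, or 18.2% [13.0 to 25.0] (whole list 18%), dTA-SOX9 83, or 52.2% [44.5 to 59.8] (whole list 55.7%), and dHMG-SOX9 98, or 61.6% [53.9 to 68.8] (whole list 56.5%). List length moves with these counts, as the control list has 33975 peaks and those of WT-SOX9, dTA-SOX9 and dHMG-SOX9 have 10543, 25948 and 23301. In lists cut to the length of the shortest, the share kept was 46.2% for both WT-SOX9 and dTA-SOX9 and 71.8% for dHMG-SOX9. Of the 41 MLL3/4 peaks with WT-SOX9, 10 were gained, or 24.4% [13.8 to 39.3] (whole list 41.8%). A MYC-tag peak lay on 5 of these 10 (whole list 53.5% of gained peaks), among them the *Tcf7l2* and *Lrp5* intron sites. For ligands WT-SOX9 kept 9 of 74 peaks and for receptors 14 of 41.

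Single genes differed in how many MLL3/4 peaks the WT-SOX9 list held. In the order control, WT-SOX9, dTA-SOX9 and dHMG-SOX9, *Lrp6* had 9, 8, 6 and 8 peaks, *Tcf7l2* 2, 3, 4 and 2 and *Wnt2b* 3 in each. These 3 genes had MYC-tag peaks of WT-SOX9, but *Fzd1*, with 3, 3, 2 and 1, had none. Of the 13 members with WT-SOX9 peaks, all but *Wnt2b* and *Tcf7l2* had fewer MLL3/4 peaks in the WT-SOX9 list than in the control, *Lrp6* by 1. *Fzd7* had 5, 2, 5 and 5, *Lrp5* 5, 2, 3 and 7 and *Ctnnb1* 4, 1, 4 and 3. *Wnt7a* had 5, 1, 4 and 4 and *Wnt8b* 3, 0, 2 and 3. Among the ligands *Wnt6* had 10, 1, 2 and 8, *Wnt10a* 8, 0, 1 and 6 and *Wnt16* 8, 2, 6 and 7. *Wnt3* had 5, 0, 2 and 1 and *Wnt5b* 5, 1, 8 and 3. So dTA-SOX9 lay near the low WT-SOX9 count at *Wnt6* and *Wnt10a* and above the control at *Wnt5b*. *Tcf7l1* had 14, 3, 7 and 7, *Lef1* 4, 0, 4 and 4, *Apc* 6, 3, 6 and 5 and *Axin2* 1, 0, 2 and 0. Of the inhibitors, *Dkk3* had 8, 2, 8 and 5 and *Sfrp1* 3, 0, 4 and 3. *Fzd10*, with the most MLL3/4 peaks of any member in skin, had none in any culture list and no MYC-tag peak either.

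In the skin SOX9 lists from W1 to W12 and in the WT-SOX9 list, a larger share of peak windows than of flanking ones held a SOX word. At W1 16 of 82 SOX9 peaks of the WNT windows, or 19.5% [12.4 to 29.4], had a SOX word within 50 bases of the centre of the maximum, against 8.54% of windows 1 kb to each side and 18.4% of the whole list. The shares were 18.6% at W2 (flanks 9.80%, whole list 15.5%), 21.2% at W6 (10.1% and 18.8%) and 29.5% at W12 (10.2% and 24.8%). Cultured WT-SOX9 had 45.8% [27.9 to 64.9] (flanks 10.4%, whole list 34.3%), 11 of 24 peaks. For dTA-SOX9 it was 5 of 31, or 16.1% [7.09 to 32.6] (flanks 9.68%, whole list 12.6%). The few peaks of dHMG-SOX9, 0 of 7 (flanks 7.14%, whole list 5.28%), and of the control, 0 of 6 (flanks 16.7%, whole list 5.17%), held none. AP1 words were in 18.3%, 16.7%, 24.2% and 22.7% of the WNT peaks from W1 to W12 (whole lists 16.2%, 15.7%, 23.5% and 29.8%). In the flanks AP1 words were in 0%, 1.47%, 3.54% and 2.27%, a wider gap than for SOX words in skin at W1 and W2. TCF/LEF words were in 3.66%, 5.88%, 4.04% and 4.55% (whole lists 5.12%, 4.04%, 4.34% and 5.05%), and in 3.05%, 1.96%, 1.52% and 4.55% of the flanks. The shares of the WNT peaks lay near those of the whole lists.

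A further 43 WNT genes outside the chosen ones, among them R-spondins and their LGR receptors, Dishevelled proteins, GSK3 kinases and more secreted regulators, were counted in the same way. SOX9 lay at 4 of them before DOX (all genes 6.03%). From W1 to W12 it lay at 27, 28, 30 and 16, against 52.4%, 57.5%, 58.7% and 39.8% of all genes, so that at W12 the share was below that of all genes. *Sostdc1*, a secreted WNT and BMP inhibitor, had 0, 8, 10, 8 and 4 SOX9 peaks from D0 to W12 and 4, 11 and 10 MLL3/4 peaks from D0 to W2. *Lgr4*, an R-spondin receptor, had 0, 8, 9, 8 and 6 SOX9 peaks and 9, 13 and 13 MLL3/4 peaks. These 2 were the genes of the 43 with more MLL3/4 peaks at both W1 and W2 (all genes 7.88%). Fewer at both were found at 21 of the 43 (all genes 40.6%), such as *Notum*, an enzyme that strips the lipid from WNT proteins, with 5, 1 and 1, and *Dvl1*, a Dishevelled gene with no SOX9 peak in any list, with 6, 1 and 3. The 4 genes named here were chosen after their values were seen. Of the 220 D0 MLL3/4 peaks of the 43 genes, 41.8% [35.5 to 48.4] were lost at W1 and 44.1% [37.7 to 50.7] at W2, against 48.5% and 48.7% of the whole list.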

How the data were processed

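The 41 samples are CUT&RUN libraries, of which 32 stand behind 16 peak lists, each made from 2 merged samples by their titles. The other 9 samples have no list here. For the WT-SOX9 control without DOX, 2 further lists come from replicate 1 alone and served only as an alternative. Groups were taken from the labels.

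By their methods the authors used Skewer to trim reads, Bowtie2 2.2.9 to align them to mm10 and Picard to remove duplicates, and kept fragments of up to 120 bp with SAMtools 1.3.1. They combined replicates, made coverage tracks with deepTools 3.1.2 and called peaks with SEACR (stringent, threshold 0.01). For SOX9 and the MYC tag the deposited maximum of a peak is in RPKM, and the authors kept peaks above 1800. In the 7 pooled MLL3/4 lists the deposited maximum is a whole-number coverage signal without scaling, so it was compared with no other list. A further deposited score, the sum of the track over the peak, was used only to rank peaks within a list. A merged list gives neither the spread between replicates nor any test of it. Stringent calling also turns a small difference near the threshold into presence or absence.

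From these lists, peaks overlapping a gene body (GENCODE vM21) plus 50 kb to each side by at least 1 bp were counted, for the 42 genes and in the same way for all 21911 protein-coding genes. A D0 or control peak was lost if no later peak overlapped it by 1 bp and kept otherwise, and a later peak with no D0 or control peak on it was gained. A promoter was 1 kb to each side of any annotated transcript start of a gene. Words were counted within 50 bases of the middle of the maximum, and in windows moved by 1 kb. Python 3.11.15 with numpy 2.4.6, pandas 2.3.3, scipy 1.17.1 (Wilson intervals) and matplotlib 3.10.9 was used, and the counting was tested on simulated data.

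All members were counted. Values by list were given per role for the 3 genes with most SOX9 regions per 100 kb, the 2 with most MLL3/4 peaks lost at both times, the 2 with most gained by W1 and still present at W2, and *Ctnnb1*. Other genes were named after their values were seen. The members and gene lists were chosen with earlier results of these data known.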

Additional observations from a re-analysis of the deposited data

How the results depend on the processing

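Of 152 values recomputed under alternatives, 102 lay within the limits set for a count (1.5 times) or a share (its interval), and 50 moved. Asking for an overlap of 50% of the shorter peak, merging peaks within 500 bp and searching wider windows for words moved none. No paired analysis was possible because the replicates were merged before peaks were called. With replicate 1 alone for the control, 9 MYC-tag peaks were found without DOX, and the shares of control MLL3/4 peaks kept were 16.6% (WT-SOX9), 48.7% (dTA-SOX9) and 55.1% (dHMG-SOX9). The counts of SOX9 peaks from D0 to W12 were 1, 37, 49, 44 and 18 with 10 kb to each side of the gene, 2, 36, 48, 54 and 26 in the top 50% of each list by total signal, and 0, 23, 37, 27 and 12 with maxima above 3600 RPKM. In lists of equal size they were 49, 49, 44 and 44 from W1 on. MYC-tag peaks in the control, WT-SOX9, dTA-SOX9 and dHMG-SOX9 were 3, 9, 10 and 3 with 10 kb, 2, 15, 19 and 4 in the top 50%, and 0, 8, 16 and 0 above 3600 RPKM, and in lists of equal size WT-SOX9 had 18 and dTA-SOX9 12, which turns their order. These settings admit fewer peaks by construction. For the other values that moved the cause was not tested. With 10 kb, 9 ligand genes had fewer MLL3/4 peaks at both times (all genes 27.1%) and 7 receptor genes had more (all genes 5.61%). In the top 50%, fewer were found at 11 ligand and 2 receptor genes (all genes 31.6%), receptors lost 47.1% of D0 peaks at W2 (ligands 61.9%, with overlapping intervals), dTA-SOX9 kept 40.3% of control peaks, and SOX9 lay on 0% of the peaks lost at W1 and 66.7% of those gained at W2. In lists of equal size, 0 receptor genes had fewer MLL3/4 peaks (all genes 27.4%) and 7 had more (all genes 12.36%), receptors lost 16.7% at W2, WT-SOX9 kept 46.2% and dHMG-SOX9 71.8%, and WT-SOX9 peaks lay on 20% of skin SOX9 regions. A longer SOX word of 8 letters stood in 6.10%, 5.88%, 4.04% and 9.09% of WNT peaks from W1 to W12 and in 20.8% with WT-SOX9. The whole lists had 5.55%, 4.55%, 5.56% and 7.86% from W1 to W12 and 11.5% with WT-SOX9. With 24 to 59 fragments behind the weakest SOX9 peak of a list and 8 to 11 behind the weakest MYC-tag peak, the absence of a peak is not the absence of the factor.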
